A study of Homo sapiens with 12 samples.

Results

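The comparison described here sets Caco-2 spheroids exposed to lactoferrin alone against control spheroids, across all genes. Its members are the 3 lactoferrin and the 3 control libraries, chosen by their labels, 6 of the 12 libraries of the series. Caco-2 is an established human colorectal adenocarcinoma line that forms polarised, enterocyte-like epithelium in culture. Cells at passage 26 were embedded in Matrigel and grown for 5 days in DMEM with 20% fetal bovine serum, antibiotics and non-essential amino acids, without a change of medium. Control spheroids then received carrier fluid and the others lactoferrin, each for 4 h, and bulk RNA was sequenced as read pairs. The other 6 libraries, with methotrexate alone or methotrexate with lactoferrin, were left out of the fit, and those with both agents return only for a set of named genes. The labels give neither the dose nor the species of lactoferrin, and they do not say that the replicate libraries stem from separate cultures. The p-values therefore measure the spread between these libraries, which may be technical.

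Lactoferrin is an iron-binding glycoprotein of the transferrin family, abundant in milk and in the granules of neutrophils. It binds several cell surface molecules, among them the lectin intelectin 1, the endocytic receptor LRP1, heparan sulfate proteoglycans and surface nucleolin, and it is taken up by intestinal epithelial cells. Cells adjust iron uptake and storage largely after transcription, through iron regulatory proteins that bind the transferrin receptor and ferritin messengers, so that transcript levels report on only a part of iron handling. Growth factor receptors act through the RAS, RAF, MEK and ERK kinases, and the ERK pathway induces its own inhibitors, such as the Sprouty proteins and dual-specificity phosphatases.

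Control 1 stood apart from the other 5 libraries in some scarce adipocyte transcripts. The adipocyte markers PLIN1, PLIN4, CIDEC and ADIPOR2 were also highest in control 1, but LIPE, GPD1, CFD and AQP7 lay there within the range of the other 5. The fatty acid carrier FABP4 had 37 counts in control 1 and 0 or 1 in each other library, and lipoprotein lipase (LPL) 29 against 0 to 2. The fatty acid receptor CD36 had 36 against 1 to 6 and adiponectin (ADIPOQ) 5 against 0 or 1. Without control 1, edgeR called 0 genes, as with it (15100 tested, 621 at an unadjusted p under 0.05), and SPRY4 had the smallest adjusted p (log2 fold change -0.74, adjusted p = 0.0532). Counts without it stand below beside those of the MAPK feedback, ribosomal protein, oxidative phosphorylation, NRF2, G2/M and hypoxia lists. The part of these transcripts in any result was not tested.

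No gene passed the test. Of 48162 genes in the table, 20279 had 0 counts in all 6 libraries and 14740 had enough counts to be tested. With edgeR's quasi-likelihood test and Benjamini-Hochberg adjustment, 0 genes (0%) had an adjusted p under 0.05, and likewise 0 met the cut-offs the study states, over 2-fold at an adjusted p under 0.01. The smallest adjusted p was 0.204, for the ERK pathway inhibitor SPRY4, and the next was 0.965. At an unadjusted p under 0.05 there were 713 genes (4.84%), where 737 would make 5% of those tested. Of the 713, 431 were higher with lactoferrin (2.92% of the genes tested) and 282 lower (1.91%). The 3 libraries of the groups did not overlap for 788 genes in the higher direction (5.35%) and 739 in the lower (5.01%).

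The count of 0 calls was also found by limma-voom (712 genes at an unadjusted p under 0.05), whereas DESeq2 called 1 gene, SPRY4, with 576 genes at an unadjusted p under 0.05. Without the filter on low counts edgeR called 23 genes, 12 higher and 11 lower, led by the ribosomal protein gene RPS29 (adjusted p = 0.000137) and SPRY4 (0.00019). Of the genes described below, DUSP6, ID1, MYC, EPHA2, MST1P2, NEAT1, RPL38, RPL39, DDIT4 and FTH1 were also among them. So was FABP4 (adjusted p = 0.0039), whose counts come almost wholly from control 1. That fit took in 27883 genes, and the cause of the difference was not tested.

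The precision of the fit bounds the size of a difference between these libraries, whose spread may be technical. For 12968 genes (88%) the 95% interval of the log2 fold change lay wholly within 2-fold in either direction, and for 71.9% within 1.5-fold. Among the 6468 genes with an average log2 CPM (counts scaled to a common library size) of 4 to 7, these shares were 99.9% and 98.3%. For the 2481 genes below an average log2 CPM of 1 only 34.3% of intervals lay within 2-fold. A 2-fold difference was therefore not excluded for most of these scarce transcripts. The median half-width of their intervals was 0.82 on the log2 scale. Fitted differences beyond 2-fold were seen for 65 genes, of which 62 lay below an average log2 CPM of 1. The biological coefficient of variation, the spread between libraries of a group beyond counting error, was 10.5%.

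**Figure D1:**
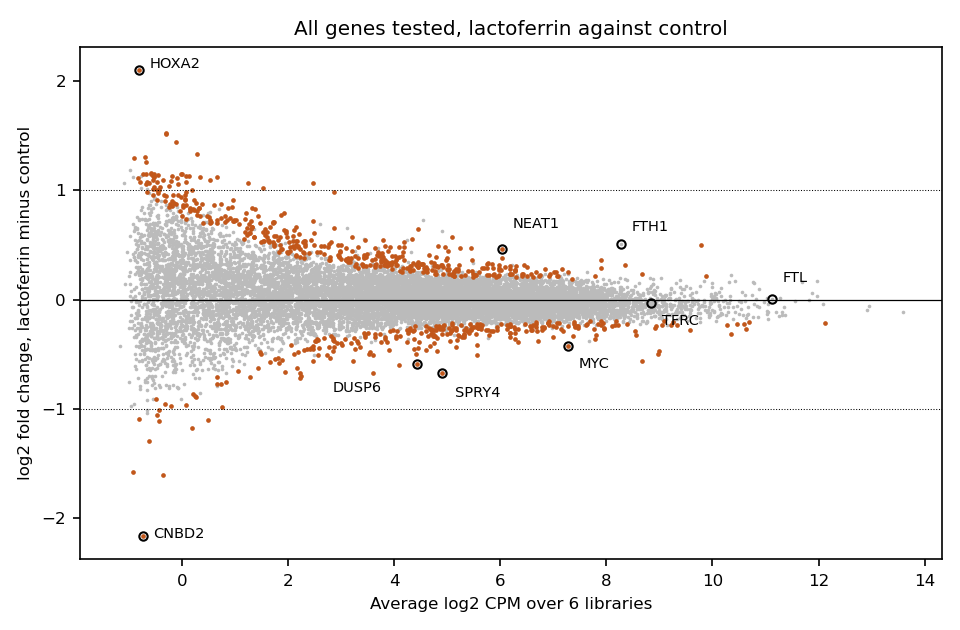
Each point is 1 of the 14740 genes tested, by its average log2 CPM over the 6 libraries (x) and its log2 fold change, lactoferrin minus control (y); coloured points have an unadjusted p under 0.05, dotted lines mark 2-fold and circles mark named genes. None of the genes passed the adjusted threshold, and 62 of the 65 points beyond the dotted lines lie below an average log2 CPM of 1.

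Totals ran from 19892094 to 23859094 counts in control and from 18714054 to 19994882 with lactoferrin, so that 3 counts, the upper limit that a count of 0 allows, came to 0.126 to 0.16 CPM (a limit for counting error alone, as the reads carry no molecular identifiers). Mitochondrially encoded genes took 2 to 3.34% of counts in control and 2.43 to 2.98% with lactoferrin. The root mean square log2 distance between 2 libraries was 0.217 to 0.289 within control, 0.238 to 0.297 within lactoferrin and 0.179 to 0.355 between the groups. The closest pair of the 6 libraries was control 2 with lactoferrin 1, and the farthest was control 3 with lactoferrin 2. The summed level of 15 epithelial markers was 8490 to 8990 CPM in control and 8130 to 8560 CPM with lactoferrin, the label being that of an epithelial line. Fibroblast markers summed to 126 to 140 and 127 to 147 CPM, with DPT, MFAP5 and PRRX1 at 0 in all 6 libraries. Most of that sum came from COL1A1 (48.9 to 68.8 CPM) and PDGFRB (33.8 to 48 CPM). Endothelial markers summed to 28.5 to 37.8 and 32.7 to 37.9 CPM (TEK and EMCN at 0), of which EGFL7 made 23.9 to 33.4 CPM. Adipocyte markers summed to 202 to 215 and 189 to 202 CPM (RETN at 0), of which the widely expressed ADIPOR2 made 131 to 156 CPM. Blood and immune markers summed to 48.9 to 52.7 and 48.1 to 52.2 CPM, with 7 of 21 at 0, among them CD68 and HBB. CD14, CSF1R and LYZ, at 12.7 to 19.4 CPM each, made most of it, with PTPRC at no more than 0.251 CPM. A sum led by so few genes does not show that such cells were present. In bulk RNA such as this, fewer cells of a type and less RNA per cell cannot be told apart.

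Levels below are CPM after TMM scaling over the 6 libraries, in the order of libraries 1, 2 and 3, and differences are log2 fold changes, lactoferrin minus control, ± SE. As no gene was called, the genes described are those the naming rule gives, by lowest p in each direction and in each list, and they are not called unless a sentence says so.

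The 2 lowest p-values in the lower direction went to inhibitors of the ERK pathway. SPRY4 (ENSG00000187678, chromosome 5, 141689992 to 141706020 on hg19), a Sprouty protein that restrains receptor tyrosine kinase signalling to ERK, had 32.5, 37.3 and 39.3 CPM in control and 23.6, 22 and 23.1 CPM with lactoferrin. All 3 lactoferrin libraries lay below every control library, and they differed little from each other (22.9 ± 0.857 CPM against 36.3 ± 3.48, SD, n = 3). The difference was -0.67 ± 0.11, with a 95% interval of -0.90 to -0.44 and an unadjusted p of 1.39e-05 (edgeR's quasi-likelihood test, adjusted p = 0.204). DESeq2 gave the same -0.67 with an adjusted p = 0.000533, and over all 16 alternatives the difference was -0.74 to -0.61 with adjusted p-values from 0.00019 to 1. DUSP6 (ENSG00000139318, chromosome 12, 89741009 to 89747048), the phosphatase that dephosphorylates ERK in the cytoplasm, had 26.9, 27 and 23.2 CPM in control and 14.3, 19.1 and 17.7 CPM with lactoferrin. Its groups did not overlap either, and the difference was -0.59 ± 0.13 (unadjusted p = 0.000272, edgeR adjusted p = 0.965).

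EGR1 (ENSG00000120738, chromosome 5, 137801179 to 137805004), a zinc finger factor induced within minutes by ERK signalling, had 22.3, 24.3 and 24.5 CPM in control against 19.5, 14.5 and 18 CPM with lactoferrin (-0.45 ± 0.13, unadjusted p = 0.00241). MYC, the growth-promoting transcription factor, had 152, 178 and 198 CPM against 128, 118 and 148 CPM (-0.42 ± 0.11, unadjusted p = 0.00153). Both had all lactoferrin libraries below all control libraries, though lactoferrin 3 came within a few CPM of control 1 for MYC. EPHA2 (ENSG00000142627, chromosome 1, 16450832 to 16482582), an ephrin receptor tyrosine kinase, had 49.4, 51.1 and 65.5 CPM against 42.6, 31.3 and 42.5 CPM (-0.51 ± 0.13). The edgeR adjusted p was 0.965 for each of the 3.

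Across the list of immediate early genes and MAPK feedback, 34 of 36 members were tested and 0 were called. Like the other lists, it was chosen with earlier results of these data known, so its shares are descriptive and no test. At an unadjusted p under 0.05, 7 were lower (20.6%, where all genes tested gave 1.91%) and 0 higher. Beside SPRY4, DUSP6, MYC and EGR1 these were SPRY2, IER2 and IER3, named after their values were seen. SPRY2, the close relative of SPRY4, had 28.7, 31.1 and 28.4 CPM in control and 22.1, 23.3 and 24.8 CPM with lactoferrin (-0.33 ± 0.11), without overlap. IER2 overlapped between the groups (-0.34 ± 0.13) and IER3 did not (-0.31 ± 0.14). Without overlap were 7 members in the lower direction and 1, the factor KLF2, in the higher (2.21, 3.16 and 3.08 against 3.56, 3.53 and 3.36 CPM), where 5.01% and 5.35% of all genes tested were so. Without control 1, 8 members were lower at an unadjusted p under 0.05 (23.5%, against 1.64% of all genes in that fit) and the median was -0.14.

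The list did not lie to one side as a whole. Its median was -0.10, with quartiles of -0.27 and 0.08, beside 0.01 with quartiles of -0.08 and 0.12 for all genes tested, and 11 of its 34 members were above 0. The AP-1 subunit FOS had 6.53, 9.72 and 9.15 CPM in control and 6.52, 7.99 and 6.56 CPM with lactoferrin, and JUN had 13.3, 14.3 and 14 against 15.4, 12.9 and 15.5 CPM. The phosphatase DUSP1 (0.01 ± 0.14), the nuclear receptor NR4A1 (-0.01 ± 0.16), the ETS factor ETV4 (-0.06 ± 0.10) and PHLDA1 (0.00 ± 0.15) overlapped as well. The list median stayed between -0.15 and -0.08 over the 16 alternatives.

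The promoters of SPRY4, DUSP6 and EGR1 are shown because these ERK-responsive genes had values that differed in one direction. Each is the 250 bases before the RefSeq gene start on GRCh38.p14 (chr5:142324248-142324497, chr12:89352502-89352751 and chr5:138465229-138465478; minus strand for SPRY4 and DUSP6, plus for EGR1), printed in the direction of transcription, and capitals mark the CArG boxes that serum response factor binds.
SPRY4: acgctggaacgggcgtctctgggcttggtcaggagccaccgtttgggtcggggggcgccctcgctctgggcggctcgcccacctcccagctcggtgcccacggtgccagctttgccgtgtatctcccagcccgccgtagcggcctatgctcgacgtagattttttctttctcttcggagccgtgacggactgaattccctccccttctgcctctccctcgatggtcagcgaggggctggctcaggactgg
DUSP6: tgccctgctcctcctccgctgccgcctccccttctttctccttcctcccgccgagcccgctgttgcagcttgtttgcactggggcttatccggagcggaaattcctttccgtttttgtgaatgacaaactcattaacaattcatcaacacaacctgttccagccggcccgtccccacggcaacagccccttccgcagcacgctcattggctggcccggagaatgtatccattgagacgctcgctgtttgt
EGR1: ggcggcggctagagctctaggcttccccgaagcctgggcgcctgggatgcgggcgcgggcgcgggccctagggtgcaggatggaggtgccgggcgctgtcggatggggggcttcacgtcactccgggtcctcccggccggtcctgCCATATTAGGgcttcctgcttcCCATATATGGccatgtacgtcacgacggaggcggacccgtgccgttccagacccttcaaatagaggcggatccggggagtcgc
Both strands were searched for CCGGAA (a longer form of the ETS factor site), TGANTCA (AP-1), TGACGTCA (cAMP response element) and the CArG box. The shorter ETS core GGAA was not among the searches, and its letters occur on a strand of each printed window. EGR1 held 2 CArG boxes, starting 105 and 83 bases before the gene start, and the other searches gave no match in the 3 windows. Of 35116 RefSeq promoter windows of the same length, 14.5% held CCGGAA, 6.57% TGANTCA, 1.65% TGACGTCA and 1.16% a CArG box. A match is a description of the letters and not evidence of binding.

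Targets of other growth pathways took low ranks in both directions. ID1 (ENSG00000125968, chromosome 20, 30193086 to 30194318), an inhibitor of basic helix-loop-helix factors and a classic BMP target, had 14.1, 13.7 and 16.4 CPM in control and 7.37, 11.4 and 9.12 CPM with lactoferrin. The groups did not overlap, and the difference was -0.67 ± 0.16 (unadjusted p = 0.000625, edgeR adjusted p = 0.965). In the same list of TGF-beta, BMP and YAP targets, ANKRD1, a YAP target named after its values were seen, was lower at an unadjusted p under 0.05 (2.91, 2.48 and 3.12 against 2.06, 2.18 and 0.96 CPM). Groups were apart in the other direction for LATS2, a kinase that inhibits YAP (48.7, 48 and 46.2 against 58.3, 65 and 56.9 CPM), for AMOTL2, a binder of YAP (0.33 ± 0.10), and for SMAD6, an inhibitor of BMP signalling (0.35 ± 0.12). At an unadjusted p under 0.05, 3 of 21 tested members were higher and 2 lower (2.92% and 1.91% for all genes), and the list median was 0.05. The YAP targets CTGF (-0.01 ± 0.15) and CYR61 (0.09 ± 0.17) overlapped between the groups.

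Among ligands of the EGF receptor family, EREG (epiregulin) had 23.8, 23.6 and 23.5 CPM in control and 25.1, 37.3 and 27.6 CPM with lactoferrin (0.34 ± 0.13, unadjusted p = 0.0201). AREG (amphiregulin) had 9.54, 9.13 and 8.97 CPM against 9.83, 11.2 and 13.6 CPM (0.33 ± 0.15, unadjusted p = 0.0407). Neither overlapped, but lactoferrin 1 lay close to control for both. These were 2 of the 12 tested members of that list (median 0.05), where 2.92% of all genes tested were higher at an unadjusted p under 0.05. WNT5A, a noncanonical Wnt ligand, had 14, 16.7 and 14.5 CPM against 19.1, 22.4 and 19.9 CPM (0.44 ± 0.12).

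In the methotrexate with lactoferrin libraries, which saw the same protein beside methotrexate, SPRY4 and DUSP6 had levels near those of lactoferrin alone. On a scale set over these 9 libraries, SPRY4 had 25.6, 25 and 20.1 CPM with both agents, 23.6, 21.7 and 23.1 CPM with lactoferrin and 32.7, 37.6 and 39.8 CPM in control. DUSP6 had 18.1, 14.4 and 21 CPM with both, against 14.3, 18.9 and 17.7 CPM with lactoferrin and 27, 27.2 and 23.5 CPM in control. All libraries with both agents were below every control library for these 2 genes.

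ID1 had 8.05, 7.55 and 10.1 CPM with both agents and 14.2, 13.8 and 16.7 CPM in control. MYC had 129, 128 and 117 CPM with both and 153, 180 and 201 CPM in control. EPHA2 had 41.9, 44.6 and 35.2 CPM with both and 49.7, 51.5 and 66.4 CPM in control, again without overlap. EGR1 had 21.8, 22.3 and 17.7 CPM with both, overlapping the lactoferrin libraries (14.3 to 19.5 CPM), and its highest library came next to control 1 (22.4 CPM). Not every gene described kept the level seen with lactoferrin. AREG had 7.69, 7.34 and 7.28 CPM with both, below every control library (9.09 to 9.6 CPM) and every lactoferrin library (9.82 to 13.6 CPM). SMAD6 had 13, 12.5 and 11.3 CPM with both, overlapping control (11.2, 12.5 and 11.9 CPM). AMOTL2 had 65.6, 61.4 and 68.9 CPM with both, above every control library (50.5, 54.2 and 49.4 CPM).

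Both agents against control gave -0.63 ± 0.13 for SPRY4, -0.53 ± 0.15 for DUSP6, -0.79 ± 0.15 for ID1 and -0.51 ± 0.11 for MYC (edgeR adjusted p = 0.831, 0.999, 0.743 and 0.999). This comparison uses the same 3 control libraries as lactoferrin against control, so the 2 sets of values are given side by side only. It had 0 called of 14854 genes tested (0%), with 332 at an unadjusted p under 0.05 (2.24%). Both agents against lactoferrin alone had 0 called of 14794 (0%) by edgeR and 269 at an unadjusted p under 0.05 (1.82%). In that comparison SPRY4 differed by 0.04 ± 0.13 (95% interval -0.24 to 0.32) and DUSP6 by 0.07 ± 0.17 (-0.30 to 0.44). DESeq2 called 3 genes there, VIM, LGALS1 and MSN. Leaving out library 3 of both agents, edgeR called 3, H19, MSN and KRT81.

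**Figure D2:**
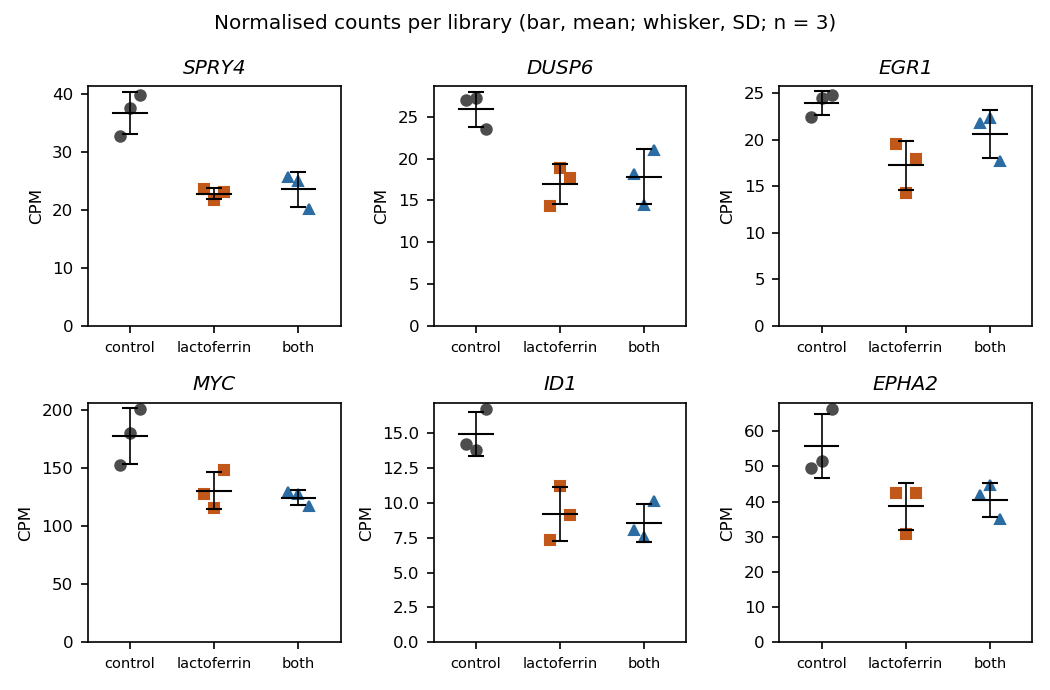
CPM on the scale set over 9 libraries (y, from 0) for 6 genes in the control, lactoferrin and both-agents libraries; points are libraries, bars means and whiskers SD (n = 3). For SPRY4 the control libraries sit between 32.7 and 39.8 CPM and the other 6 between 20.1 and 25.6 CPM.

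C12orf5, HSD17B2, FAM46C and CNBD2 were also among the genes with the lowest p in the lower direction. C12orf5 (ENSG00000078237), which encodes TIGAR, a fructose bisphosphatase and p53 target, had 27, 26.3 and 30.3 CPM in control and 21.2, 19.5 and 20.1 CPM with lactoferrin (-0.46 ± 0.11). HSD17B2 (ENSG00000086696), which inactivates estradiol and testosterone, had 98, 89.7 and 88.2 CPM against 76.4, 66.4 and 67.2 CPM (-0.39 ± 0.09). FAM46C had 51.2, 48.1 and 61.2 CPM against 42.7, 37.6 and 40.2 CPM. The groups did not overlap for any of these 3. CNBD2, at under 1 CPM in every library, gave a fitted difference of -2.16 ± 0.57 that rests on few counts.

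In the higher direction the lowest p-values were more mixed in function. NEAT1 (ENSG00000245532, chromosome 11, 65190245 to 65213011), the long noncoding RNA that builds nuclear paraspeckles, had 54, 63.4 and 47.6 CPM in control and 72, 80.4 and 74.8 CPM with lactoferrin (0.46 ± 0.11, unadjusted p = 0.00065). COL27A1, a fibrillar collagen chain, had 29.1, 36.2 and 29.7 CPM against 40.6, 46.1 and 44.6 CPM (0.47 ± 0.11). MAPK8IP3, a scaffold for JNK kinases and kinesin, had 23.2, 30.6 and 27.4 CPM against 37.8, 37.2 and 36.4 CPM (0.45 ± 0.11). The groups were apart in all 3 genes, and the edgeR adjusted p was 0.965 for each.

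The pseudogene MST1P2 had 3.62, 4.5 and 2.46 CPM in control and 5.17, 10 and 7.04 CPM with lactoferrin (1.07 ± 0.25), and reads of its near-identical relatives could be counted in it. HOXA2, a homeobox factor, lay at 0.132 to 0.252 CPM in control and 0.675 to 0.96 CPM with lactoferrin (2.10 ± 0.50). HOXA3 (0.61 ± 0.17) is its neighbour, and without knowledge of strand the reads of antisense genes in that cluster cannot be told apart from theirs. IRX5, another homeobox factor, had 12.9, 16.2 and 16.2 CPM against 19.5, 20 and 23.8 CPM (0.48 ± 0.13). MAMDC4 (1.07 ± 0.26) and METTL10 (0.72 ± 0.18) complete the 10 genes of this direction together with WNT5A.

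Among genes of iron handling no difference passed the test. Of 30 members, 27 were tested, 0 were called and 0 had an unadjusted p under 0.05 (4.84% of all genes tested did). The list median was -0.03, with quartiles of -0.09 and 0.02, and 26 of the 27 intervals lay within 2-fold. TFRC (ENSG00000072274, chromosome 3, 195754054 to 195809060), the transferrin receptor that imports iron, had 465, 433 and 496 CPM in control and 420, 499 and 446 CPM with lactoferrin (-0.03 ± 0.09, 95% interval -0.23 to 0.17). FTL (ENSG00000087086, chromosome 19, 49468558 to 49470135), the ferritin light chain, had 2150, 2190 and 2350 CPM against 2190, 2210 and 2310 CPM (0.01 ± 0.09, 95% interval -0.17 to 0.19).

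FTH1 (ENSG00000167996, chromosome 11, 61727190 to 61735132), the ferritin heavy chain, varied widely between the lactoferrin libraries. It had 312, 253 and 206 CPM in control and 178, 504 and 412 CPM with lactoferrin, so that lactoferrin 1 lay below every control library and the other two above. The difference was 0.51 ± 0.25 (95% interval -0.02 to 1.03, unadjusted p = 0.0579, edgeR adjusted p = 0.965). It came to 0.82 without lactoferrin 1 and to 0.20 without lactoferrin 2, and without the filter on low counts the adjusted p was 0.00213 (0.00213 to 1 over all alternatives). FTH1 has processed pseudogenes that could share its reads. Libraries with both agents had 294, 361 and 311 CPM on the scale of 9 libraries.

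Per length, as RPKM (counts scaled to gene length and library size), FTL was the most abundant of these transcripts at 2540 ± 126 in control and 2540 ± 75.7 with lactoferrin. Next in order in control came FTH1 (209 ± 43.3 RPKM in control and 296 ± 136 with lactoferrin), the iron chaperone PCBP1 (152 ± 13 and 128 ± 28.5) and the ferritin autophagy receptor NCOA4 (124 ± 6.89 and 115 ± 6.92). The metal importer SLC39A14 (122 ± 4.13 and 115 ± 7.72 RPKM) and TFRC (90.8 ± 6.17 and 88.9 ± 7.84 RPKM) followed, and the libraries of NCOA4 and SLC39A14 overlapped in level. The iron exporter SLC40A1 (ferroportin) had 58.2 ± 4.84 and 55 ± 2.68 RPKM, the importer SLC11A2 (DMT1) 33 ± 0.928 and 31.8 ± 3.15, and the ferroxidase HEPH 29.6 ± 0.526 and 27.7 ± 1.09. The liver hormone HAMP (hepcidin) had 0 counts in all 6 libraries.

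Molecules proposed to bind lactoferrin were present at unequal levels and none passed the test. Of 17 listed genes, LTF itself included, 14 were tested, 0 were called and 0 had an unadjusted p under 0.05, and the smallest unadjusted p was 0.312 (LRP1). NCL (nucleolin) had 253 ± 16.8 RPKM in control and 255 ± 14 with lactoferrin, and the heparan sulfate proteoglycan SDC4 143 ± 5.56 and 144 ± 1.64. SDC1 had 74.6 ± 8.39 and 73.1 ± 7.63 RPKM, and LRP1 46.3 ± 7.75 and 50.8 ± 7.38. The endocytic receptor LRP2 (megalin) lay at 9.97 ± 2.01 and 9.17 ± 1.38 RPKM and CD14 at 7.47 ± 0.697 and 7.44 ± 0.472.

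ITLN1, the intelectin described as the intestinal lactoferrin receptor, was scarce, with 0.891, 0.568 and 0.52 RPKM in control and 0.72, 0.526 and 0.765 RPKM with lactoferrin. LTF, the gene of lactoferrin, had 0.14 ± 0.113 and 0.157 ± 0.0635 RPKM. Their intervals were wide (ITLN1 -0.78 to 0.85, LTF -1.18 to 1.42 on the log2 scale), so that a 1.5-fold difference in either direction was not excluded. The Toll-like receptors TLR4 and TLR9 and the chemokine receptor CXCR4 had too few counts to be tested, at no more than 0.232 RPKM in any library.

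**Figure D3:**
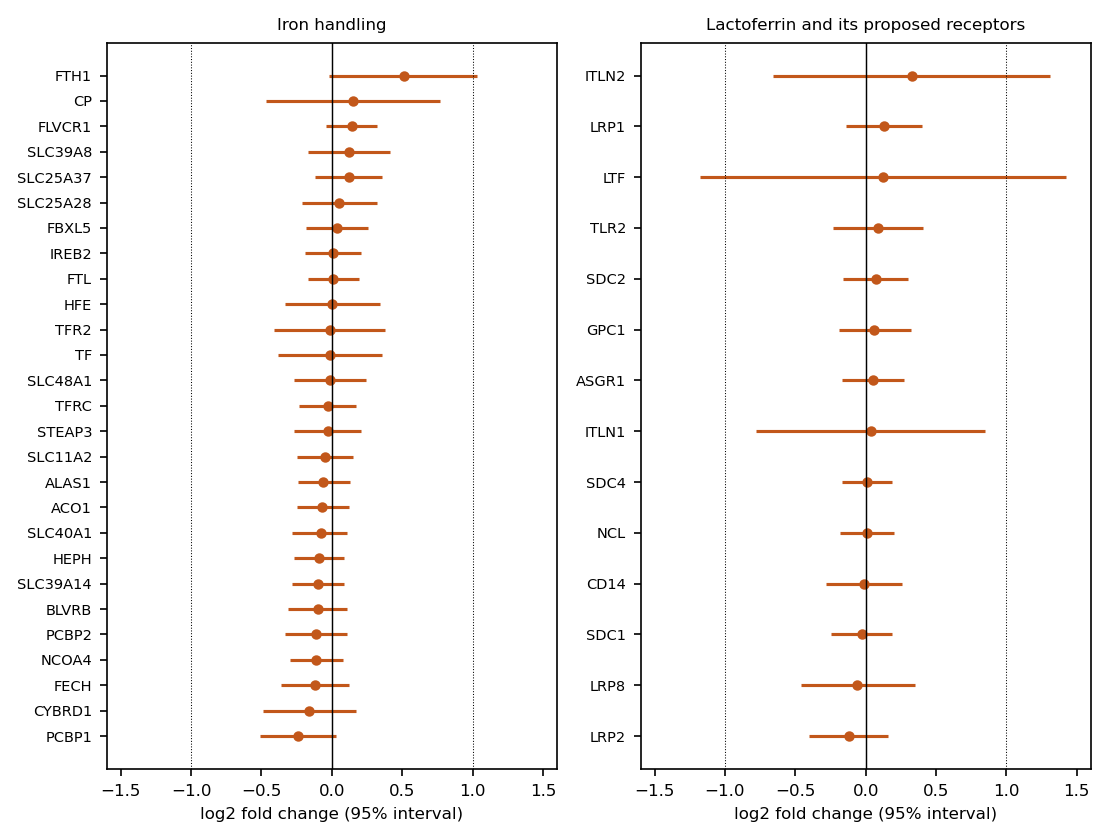
Log2 fold change, lactoferrin minus control (x, point) with its 95% interval (line) for the 27 tested genes of iron handling (left) and the 14 tested genes of lactoferrin and its proposed receptors (right); dotted lines mark 2-fold. Every interval crosses 0, and the widest belong to scarce transcripts such as LTF (-1.18 to 1.42).

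Protein synthesis and respiratory chain genes lay slightly lower with lactoferrin as groups, by no more than the range of the control libraries. Of 86 cytosolic ribosomal protein genes 81 were tested and 0 called. At an unadjusted p under 0.05, 15 were lower (18.5%, against 1.91% of all genes tested) and 1 higher, and the median was -0.12 with 72 of 81 below 0. RPL38 (ENSG00000172809), a protein of the large subunit, had 691, 587 and 497 CPM in control and 472, 356 and 425 CPM with lactoferrin (-0.50 ± 0.12, unadjusted p = 0.000826). RPL37 had 929, 834 and 730 CPM against 690, 672 and 694 CPM (-0.28 ± 0.10). In both the groups did not overlap, while the control libraries spanned more CPM than the difference between the means.

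RPL39 had 611, 559 and 611 CPM in control and 609, 327 and 353 CPM with lactoferrin, with lactoferrin 1 at the level of control. Leaving out lactoferrin 1, RPL39 was the 1 gene called by edgeR (-0.82, adjusted p = 0.0231). RPS29 also overlapped (633, 499 and 329 against 359, 213 and 422 CPM, unadjusted p = 0.0194). RPS27 overlapped between the groups (1560, 1540 and 1230 against 1240, 1190 and 1080 CPM). Ribosomal protein genes have many processed pseudogenes, among which reads can be split.

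Nuclear genes of oxidative phosphorylation had 84 of 100 members tested, 0 called, 14 lower at an unadjusted p under 0.05 (16.7%) and 0 higher, with a median of -0.12. ATP5L, a subunit of ATP synthase, had 144, 110 and 102 CPM in control and 94.3, 87.6 and 91.6 CPM with lactoferrin (-0.38 ± 0.11). NDUFA1, a subunit of complex I, had 99.4, 80.8 and 82 CPM against 70.4, 58.8 and 75.4 CPM (-0.36 ± 0.11). COX7C, a subunit of complex IV, had 442, 389 and 416 CPM against 387, 301 and 310 CPM (-0.32 ± 0.10). The groups were apart in all 3. Mitochondrial ribosomal protein genes had 74 of 77 tested, 7 lower at an unadjusted p under 0.05 (9.46%), 0 higher and a median of -0.10, with MRPL52 at 65, 61 and 58.3 against 53.8, 41.5 and 52.8 CPM.

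These medians moved with 1 control library. As the median deviation of the 81 ribosomal genes from their mean over the 6 libraries, control 1 stood at 0.17, control 2 at 0.03 and control 3 at -0.04, and the lactoferrin libraries at -0.03, -0.06 and -0.10. Control 3 thus lay within the range of the lactoferrin libraries, and without control 1 the median difference was -0.06 and 3 of the 81 were lower at an unadjusted p under 0.05 (3.7%) with 2 higher. The share of all counts in ribosomal protein genes was 8.27 ± 0.54% in control and 7.74 ± 0.169% with lactoferrin (exact two-sided permutation test, p = 0.2, the smallest possible with 3 against 3 being 0.1). For the nuclear respiratory genes control 1 stood at 0.16 and lactoferrin 2 at -0.12. Without control 1 their median difference was -0.08, with 7 of 85 lower (8.24%) and 2 higher (2.35%). The mitochondrial ribosomal genes then had 4 of 74 lower (5.41%), 0 higher and a median of -0.07. Of all genes in the fit without control 1, 1.64% were lower and 2.47% higher at an unadjusted p under 0.05. Control 1 is the library that also held the adipocyte transcripts.

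The 13 mitochondrially encoded genes, which specify the other subunits of the same complexes, had a median of 0.03 and 0 members at an unadjusted p under 0.05. They varied more within control than between the groups: control 1 stood at -0.43 and control 3 at 0.27, with the lactoferrin libraries at 0.17, 0.14 and -0.09. MT-ND4 had 2850, 3550 and 4960 CPM in control and 4600, 4400 and 3820 CPM with lactoferrin. Zinc finger ZNF genes, many of them repressors that recruit KAP1, had 401 of 521 tested, 10 higher and 1 lower at an unadjusted p under 0.05 (2.92% and 1.91% for all genes) and a median of 0.07. Their level was highest in lactoferrin 2 (0.13) and lowest in control 3 (-0.09), and without lactoferrin 2 the median was 0.03.

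The median log2 fold change differed with gene length, though not steadily. It was 0.04 for the 249 genes of up to 0.5 kb, -0.01 for the 874 genes of 0.5 to 1 kb, -0.03 for the 2446 genes of 1 to 2 kb, 0 for the 5915 genes of 2 to 4 kb, 0.04 for the 4487 genes of 4 to 8 kb and 0.08 for the 769 genes over 8 kb. In the longest genes the deviation was 0.08 in lactoferrin 2, 0.03 and 0.01 in the other lactoferrin libraries, and -0.04, 0 and -0.06 in control. The part of length in the results for single genes and lists was not tested beyond a fit with a length term, which also called 0 genes.

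**Figure D4:**
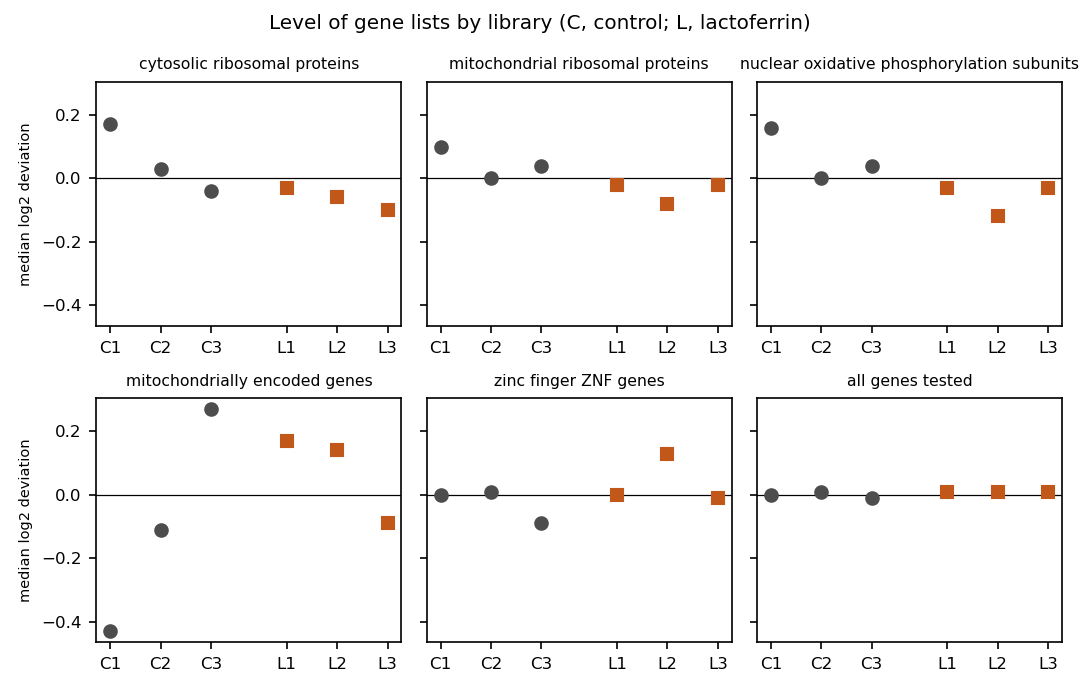
Median log2 deviation of the members of a list from their mean over the 6 libraries (y), by library (x; C, control; L, lactoferrin), for 5 lists and all genes tested. Control 1 stands highest for the cytosolic ribosomal proteins (0.17) and lowest for the mitochondrially encoded genes (-0.43).

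Proliferation and nucleotide genes gave few differences. MKI67, the Ki-67 proliferation marker, had 298, 322 and 249 CPM in control and 344, 396 and 347 CPM with lactoferrin (0.32 ± 0.10, unadjusted p = 0.0069, edgeR adjusted p = 0.965), without overlap. It was 1 of 2 G2/M genes of 36 higher at an unadjusted p under 0.05 (2.92% of all genes tested were), with the kinetochore gene NUF2 (0.27 ± 0.12). The list median was 0.01. Without control 1 there were 5 of 36 in the higher direction (13.9%, against 2.47% of all genes in that fit) and the median was 0.03. Of 40 genes of G1/S and DNA replication, 0 had an unadjusted p under 0.05 and all 40 intervals lay within 2-fold. TYMS, the thymidylate synthase, had 50.8, 45 and 48.2 CPM against 43.2, 47.8 and 43.8 CPM (-0.10 ± 0.10). CDKN1A, the cell cycle inhibitor induced by p53, had 19.1, 20.2 and 15.8 CPM against 17.6, 17.8 and 18.8 CPM (-0.03 ± 0.12).

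No gene of the stress responses was called. Of 23 NRF2 targets, 18 lay below 0, with a median of -0.07 (-0.11 to -0.04 over 16 alternatives). At an unadjusted p under 0.05, 3 were lower (13%, against 1.91% of all genes tested) and 0 higher: AKR1C1 (77.5, 72.2 and 90.7 against 70.5, 56.6 and 67.9 CPM) and AKR1C2, near-identical ketosteroid reductases whose reads can be split between them, and the quinone reductase NQO1 (252, 227 and 265 against 227, 198 and 214 CPM). Without control 1, 2 of the 23 were lower (8.7%, against 1.64% of all genes in that fit). HMOX1, heme oxygenase and a target of the same factor, had 27.8, 25.8 and 30.9 CPM against 25.6, 26.8 and 28.1 CPM (-0.07 ± 0.11). In the integrated stress response, 34 tested members had 2 higher and 1 lower at an unadjusted p under 0.05 (2.92% and 1.91% for all genes). VLDLR, a lipoprotein receptor, had 1, 0.295 and 0.44 CPM in control and 1.3, 1.3 and 1.17 CPM with lactoferrin (1.15 ± 0.42), without overlap. DDIT4, an inhibitor of mTORC1, overlapped (21.3, 19.2 and 8.31 against 16, 28.8 and 27.1 CPM). CHAC1, a glutathione-degrading enzyme, was the lower one (6.18, 7.03 and 3.87 against 3.21, 3.17 and 4.11 CPM), and there only lactoferrin 3 lay above a control library, control 3. The metallothionein MT2A, one of a family of close paralogs, had 3.52, 3.91 and 6.29 CPM against 4.11, 4.05 and 6.61 CPM.

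Inflammatory and interferon genes, of interest because lactoferrin is known as an immune modulator, did not stand apart where they could be tested. Of 34 listed NF-kB and inflammatory genes 25 were tested, and of 38 interferon-stimulated genes 31. The cytokines IL6 and CSF2 had 0 counts in all 6 libraries, and TNF and IL8 had too few counts to be tested. Of the 25 tested NF-kB and inflammatory genes 1 had an unadjusted p under 0.05 (4.84% of all genes tested did), the epithelial oxidase DUOX2 (4.42, 4.84 and 4.66 against 3.86, 3.06 and 3.52 CPM). Of the 31 tested interferon-stimulated genes 0 did, and their median was -0.03. CCL20, a chemokine of the gut epithelium, lay at 1.41 to 1.71 CPM in control and 1.07 to 1.20 CPM with lactoferrin (-0.46 ± 0.30, unadjusted p = 0.143).

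Genes of the differentiated enterocyte kept medians within 0.07 of 0. Of 27 tested brush border genes, 2 were lower at an unadjusted p under 0.05 (7.41%, against 1.91% of all genes tested). They were the alkaline phosphatase ALPPL2 (-0.47 ± 0.18) and the ceramidase ASAH2 (-0.38 ± 0.17). Of 27 tested intestinal identity factors, 2 were higher and 2 lower at an unadjusted p under 0.05 (2.92% and 1.91% for all genes), with a median of 0.01. ISX, an intestinal homeobox factor that controls vitamin A uptake, had 42.8, 39.6 and 41.1 CPM in control and 33.9, 33.1 and 28.5 CPM with lactoferrin (-0.37 ± 0.10, unadjusted p = 0.00253), without overlap. EHF was the other lower one (-0.44 ± 0.19), and MAF (0.48 ± 0.18) and HES1 (0.22 ± 0.10) were the higher ones. The secreted trypsin inhibitor SPINK1 had 200, 183 and 171 CPM against 161, 139 and 139 CPM (-0.33 ± 0.10). Of 28 tight junction and adhesion genes 0 had an unadjusted p under 0.05 and all 28 intervals lay within 2-fold. LGR5, the intestinal stem cell receptor, had 24.1, 21.8 and 25.5 CPM against 24.3, 20.9 and 22.4 CPM (-0.08 ± 0.11).

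Over all 41 lists, 0 held a called member. Their 1474 distinct tested members included 107 at an unadjusted p under 0.05 in either direction, beside 713 of all 14740 genes tested (4.84%). The share was larger among the list members, and the lists were chosen with earlier results of these data known. Among lists with at least 5 tested members the medians ran from -0.12 (cytosolic ribosomal proteins and nuclear oxidative phosphorylation) to 0.11 (metallothionein and zinc genes, 10 tested).

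**Figure D5:**
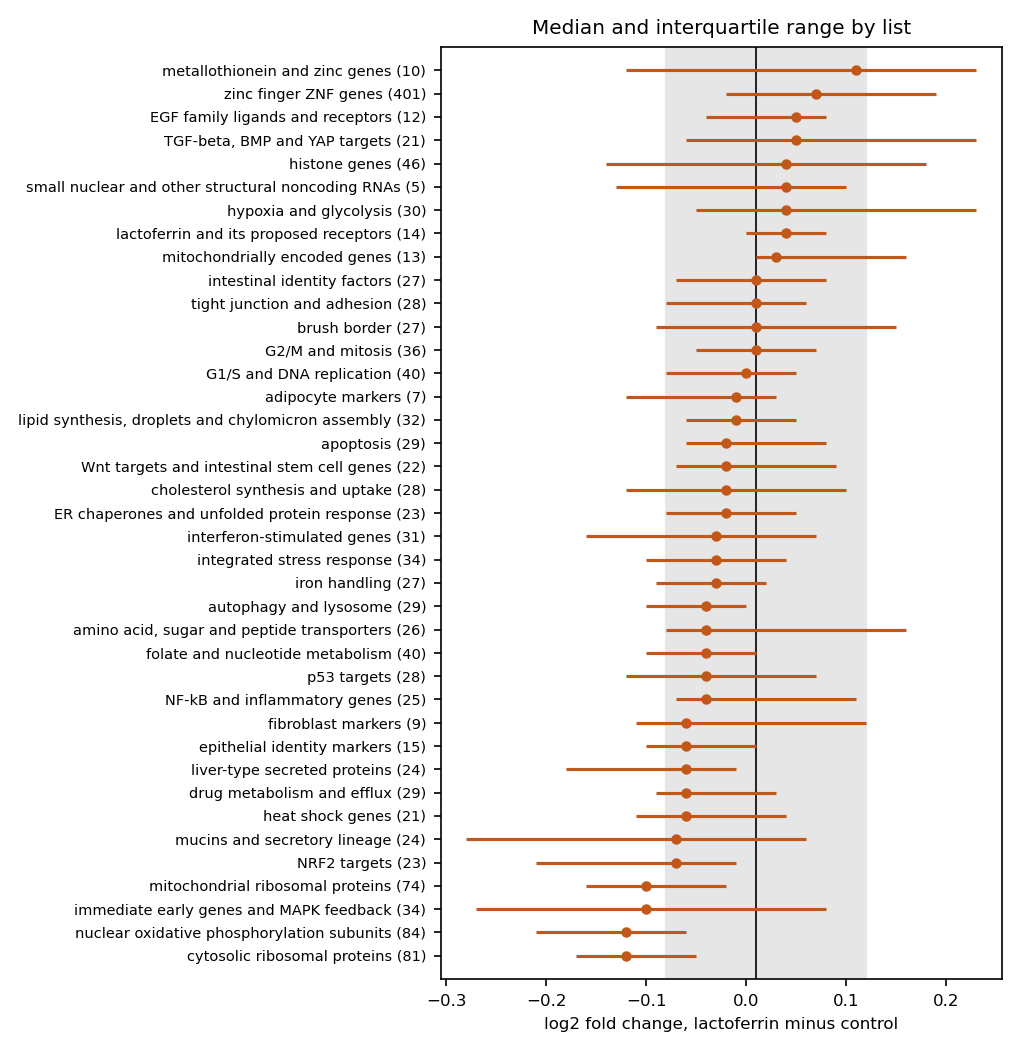
Median log2 fold change, lactoferrin minus control (point) and interquartile range (line) of each list with at least 5 tested members (number in brackets); the vertical line and grey band give the same for all genes tested, 0.01 with quartiles of -0.08 and 0.12. List medians run from -0.12 to 0.11.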

How the data were processed

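RNA was sequenced from 12 Caco-2 spheroid libraries; 6 enter the fit. The authors deposited raw counts per gene, with symbols, lengths and hg19 coordinates in the same table. The submitters' processing notes name CASAVA, STAR, DESeq2 and hg19. Their roles and versions, the annotation, the strand setting and whether a count is a read or a pair are not stated there or in the labels.

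The comparison used edgeR 4.0.16 (R 4.3.3): filterByExpr, TMM scaling, a group-means negative binomial fit with 4 residual degrees of freedom, the quasi-likelihood F test and Benjamini-Hochberg adjustment over all genes tested, with calls at an adjusted p under 0.05. The pipeline was tested on simulated data first. Named genes were the 10 tested genes with the lowest p in each direction, since none was called, up to 4 members with the lowest p in each list, and LTF, TFRC, FTH1, FTL, ITLN1, LRP1, NCL, HMOX1, MT2A, CDKN1A, TYMS, MKI67 and LGR5; clone symbols were passed over. Intervals are 95%. Members, lists and rules were chosen with earlier results of these data known. Alternatives were DESeq2 1.42.0, limma-voom (limma 3.58.1), other scalings and filters, a replicate term, fits on 9 or 12 libraries and leaving out each library. A gene length term, list counts without control 1 and the alternatives for both agents against lactoferrin were added after seeing the data. Promoter sequences are from RefSeq (GRCh38.p14), matched by symbol for 3 of 3 genes.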

Additional observations from a re-analysis of the deposited data

How the results depend on the processing

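Genes called numbered 0 under limma-voom, relative log expression factors, library totals, a minimum of 10 counts in 3 libraries, 9 or 12 libraries and a length term. DESeq2 called 1 (SPRY4, lower). Without the filter there were 23 (12 higher, 11 lower), 2 of them past the study's cut-offs and 12 members of the lists; the cause was not tested. Leaving out 1 library gave 0 to 1 (1, RPL39, a list member, without lactoferrin 1). With a replicate block edgeR called 2, SPRY4 and MST1P2 (adjusted p = 0.022 for each, 1 higher, 1 lower, 1 list member). Deviations of same-numbered libraries from their group means correlated at -0.30, -0.04 and 0.17. The labels do not say whether same-numbered libraries share a culture or batch, and these 3 correlations cannot decide it. Both agents against lactoferrin had 3 calls with DESeq2, 0 with the replicate block and 0 to 3 leaving out 1 library. The share of mitochondrial counts differed by 0.147 percentage points, or -0.16 to 0.51 leaving out 1 library, and that of the 10 most abundant genes by -0.0667, or -0.262 to 0.173. Directions of genes near 0 turned. FTL (0.01) was 0 with DESeq2, relative log expression factors and 12 libraries, and -0.01 without the filter and with 9 libraries. NCL (0.01) was 0 without the filter and -0.01 with the length term. Leaving out 1 library gave LTF -0.36 to 0.74, TFRC -0.10 to 0.02, FTL -0.03 to 0.05, NCL -0.03 to 0.07, HMOX1 -0.13 to 0, LRP1 0 to 0.25, CDKN1A -0.13 to 0.05, MT2A -0.18 to 0.40 and ITLN1 -0.11 to 0.30. Depth limits scarce transcripts: below an average log2 CPM of 1, 34.3% of intervals lay within 2-fold.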

Other observations

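Genes of secretion and lipid handling give further values that no comparison above uses. Liver-type secreted proteins, which Caco-2 cells make as fetal enterocytes do, had 24 tested members and a median of -0.06. At an unadjusted p under 0.05, 3 were lower (12.5%, against 1.91% of all genes tested) and 0 higher. TTR (transthyretin, a carrier of thyroid hormone) had 195, 182 and 174 CPM in control and 165, 153 and 150 CPM with lactoferrin (-0.24 ± 0.09), and HP (haptoglobin) 24.7, 22.8 and 26.9 against 22, 18.4 and 20.2 CPM (-0.30 ± 0.12). AMBP was the third (-0.44 ± 0.17), and the groups did not overlap for any of them. Cholesterol genes lay on both sides of 0. Of 28 tested, 3 were higher and 1 lower at an unadjusted p under 0.05 (2.92% and 1.91% for all genes). FDPS (farnesyl diphosphate synthase) had 5.68, 4.8 and 5.41 against 5.82, 7.48 and 9.06 CPM, and NSDHL, a later step of the pathway, 70.7, 68.2 and 70 against 57.9, 58.7 and 63.1 CPM. Of 32 genes of lipid synthesis, droplets and chylomicrons 0 had an unadjusted p under 0.05, and APOB, the structural protein of chylomicrons, had 1530, 1770 and 1730 against 1720, 1920 and 1920 CPM.

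Hypoxia and glycolysis genes had 3 of 30 tested members higher at an unadjusted p under 0.05 and 0 lower (2.92% and 1.91% for all genes tested). Without control 1, 5 of 30 were higher (16.7%, against 2.47% of all genes in that fit) and the median was 0.01. The 3 genes higher in the main fit were EGLN1, PDK1 and BNIP3. The prolyl hydroxylase EGLN1 had 53.3, 55.4 and 50.9 against 55.9, 67 and 64.7 CPM without overlap. PDK1 (7.08, 5.97 and 3.78 against 5.87, 14.2 and 6.56 CPM) and BNIP3 (31.1, 28.9 and 17.2 against 24.8, 48.3 and 34.9 CPM) overlapped, with control 3 lowest and lactoferrin 2 highest in both.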
